A study of Mus musculus with 8 samples.

Results

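Epcam, 7 claudin genes, Ocln and Tjp1 were followed in malignant mesothelioma of the mouse, which arises from the mesothelial lining of body cavities. These 10 genes were chosen by name, as genes of epithelial adhesion and of the tight junction, and each was matched to a single one of the 52636 genes in the count tables. Their levels were compared between 6 triple knockout and 2 double knockout samples. By their labels the triple knockout samples carried losses of Bap1, Nf2 and Cdkn2a, and the double knockout samples losses of Nf2 and Cdkn2a alone, so both groups are labelled as lacking Nf2 and Cdkn2a. The study's title places the tumours in the pleura of conditional mouse models; the sources used here give neither the driver of the deletions nor the age and strain of the mice. Merlin of the Hippo pathway is the product of Nf2, p16 and p19 restrain the cell cycle as products of Cdkn2a, and Bap1 removes ubiquitin from histone H2A. The labels describe cells grown in serum-containing medium, and RNA that was enriched for mRNA, while the tissue is labelled as the tumour. Leukocyte, endothelial and muscle genes were counted in these samples, at summed levels given with the results, and whether the RNA came from cultured cells or from whole tumours cannot be told from the labels. The number of mice or cultures behind the samples is not stated, so each p-value measures only the spread between samples, which may be technical. Replicate numbers follow the order of deposition and only name samples.

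Tight junctions seal the space between neighbouring epithelial or endothelial cells. Claudins form the strands of the junction, some as barriers and some as pores for ions; occludin is another protein of the strands, and Tjp1, also called ZO-1, is the cytoplasmic scaffold that holds claudins and links them to actin. Epcam is an adhesion molecule of epithelial cells that is known to bind claudins and to stabilise them. Mesothelial cells join epithelial-type junctions with mesenchymal filaments, and tumours of the mesothelium range from epithelioid to sarcomatoid forms.

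Depth ran from 26847202 to 32082535 counts per sample. Levels are given as CPM, the count scaled to library size, with TMM factors. The triple and double samples were compared with edgeR's quasi-likelihood test, and a gene was called at a Benjamini-Hochberg adjusted p under 0.05 over all 17709 genes that passed the filter on low counts. Over all of these genes 2.94% were called higher in the triple samples and 5.41% lower, together 8.35%. Bap1 itself stood at 43.1 to 72.1 CPM in the triple samples, against 106 and 71.2 CPM in the double samples (adjusted p = 0.122). Nf2 stood at 62.7 to 100.3 CPM in the triple samples, against 165 and 109 CPM in the double samples, and Cdkn2a at 4.05 to 8.76 CPM, against 1.54 and 5.16 CPM. The sources used here do not state which parts of the 3 genes are deleted, and whole-gene counts need not show such a loss, so the counts do not check these labels. How many genes were called depended on which samples were kept: without double sample 1, 103 genes were higher and 212 lower, and without double sample 2, 2592 were higher and 2987 lower. Mesothelin (Msln), a mesothelial marker, was present in every sample, at 12.6 to 194 CPM in the triple samples and at 251 and 342 CPM in the double samples. Pdpn and Krt8 were present too, and most other mesothelial markers were low outside triple sample 3. The sum of Wt1, Upk3b, Upk1b, Lrrn4, Krt19, Muc16, Bnc1 and Gpm6a was 689 CPM there, against 2.73 to 10.3 CPM in the other triple samples and 11.1 and 2.67 CPM in double samples 1 and 2. These 8 genes were chosen after their values were seen, and leave out Msln, Pdpn, Krt8 and Calb2. All 12 mesothelial markers summed to 1112 CPM in triple sample 3 and 535 CPM in triple sample 4. In double samples 1 and 2 they summed to 337 and 1227 CPM. Calb2 (calretinin) had at most 0.03 CPM in any sample.

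The upstream sequences of the genes that moved most clearly are shown first, because they are the regions in which factors that control epithelial genes are known to act. RefSeq (GRCm38.p6) has a start for all 10 genes, and the 250 bases before it are given 5′ to 3′ on the gene's strand. Capitals mark CAGGTG or its reverse complement CACCTG, the E-box bound by Snail and Zeb repressors. Epcam lies on the plus strand with the window at chr17:87635729-87635978, Cldn1 on the minus strand at chr16:26371840-26372089, and Tjp1 on the minus strand at chr7:65371245-65371494. The Tjp1 window lies inside the gene as the count tables give it, which begins further upstream.
Epcam: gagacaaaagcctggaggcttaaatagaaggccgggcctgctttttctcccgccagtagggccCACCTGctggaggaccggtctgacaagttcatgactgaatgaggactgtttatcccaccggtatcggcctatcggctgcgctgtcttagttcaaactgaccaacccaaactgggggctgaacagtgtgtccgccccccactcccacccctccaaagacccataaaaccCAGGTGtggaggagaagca
Cldn1: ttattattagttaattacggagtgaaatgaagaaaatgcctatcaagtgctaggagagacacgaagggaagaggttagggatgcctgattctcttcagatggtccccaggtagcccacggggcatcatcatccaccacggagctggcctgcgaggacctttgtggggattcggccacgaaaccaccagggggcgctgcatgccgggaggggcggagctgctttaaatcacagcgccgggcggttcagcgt
Tjp1: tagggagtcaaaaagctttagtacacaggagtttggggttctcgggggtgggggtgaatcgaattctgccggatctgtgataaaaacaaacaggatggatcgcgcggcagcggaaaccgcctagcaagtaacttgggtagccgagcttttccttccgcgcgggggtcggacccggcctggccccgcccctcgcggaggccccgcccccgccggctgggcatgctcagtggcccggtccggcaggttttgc
The Epcam window holds CACCTG and CAGGTG once each. The windows of Cldn1 and Tjp1 hold neither. Among all 10 genes, 5 had the motif in at least 1 of their windows, namely Epcam, Cldn4, Cldn6, Cldn7 and Ocln, while 17.2% of all 32851 RefSeq windows of the same length had it. Several genes have more than 1 window, which gives them more chances of a match. GGGCGG or its reverse complement, the GC box of Sp1-type factors, was found in all 10 genes and in 32.7% of all windows. A match is a stretch of letters and not a measured binding site.

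Of the 10 genes, 7 passed the filter on low counts. Epcam and Cldn1 rose in the triple samples, Tjp1 fell, and Cldn4, Cldn7, Cldn12 and Cldn15 did not pass the test. That is 2 higher and 1 lower of 7 tested, with a median log2 fold change of 0.55, against 0.02 over all genes tested. Over those genes 2.94% were called higher and 5.41% lower. Cldn3, Cldn6 and Ocln were too low to be tested. The 3 called genes were also the 3 of the 7 tested whose groups did not overlap, while 24.1% of all tested genes showed no overlap.

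**Figure D1:**
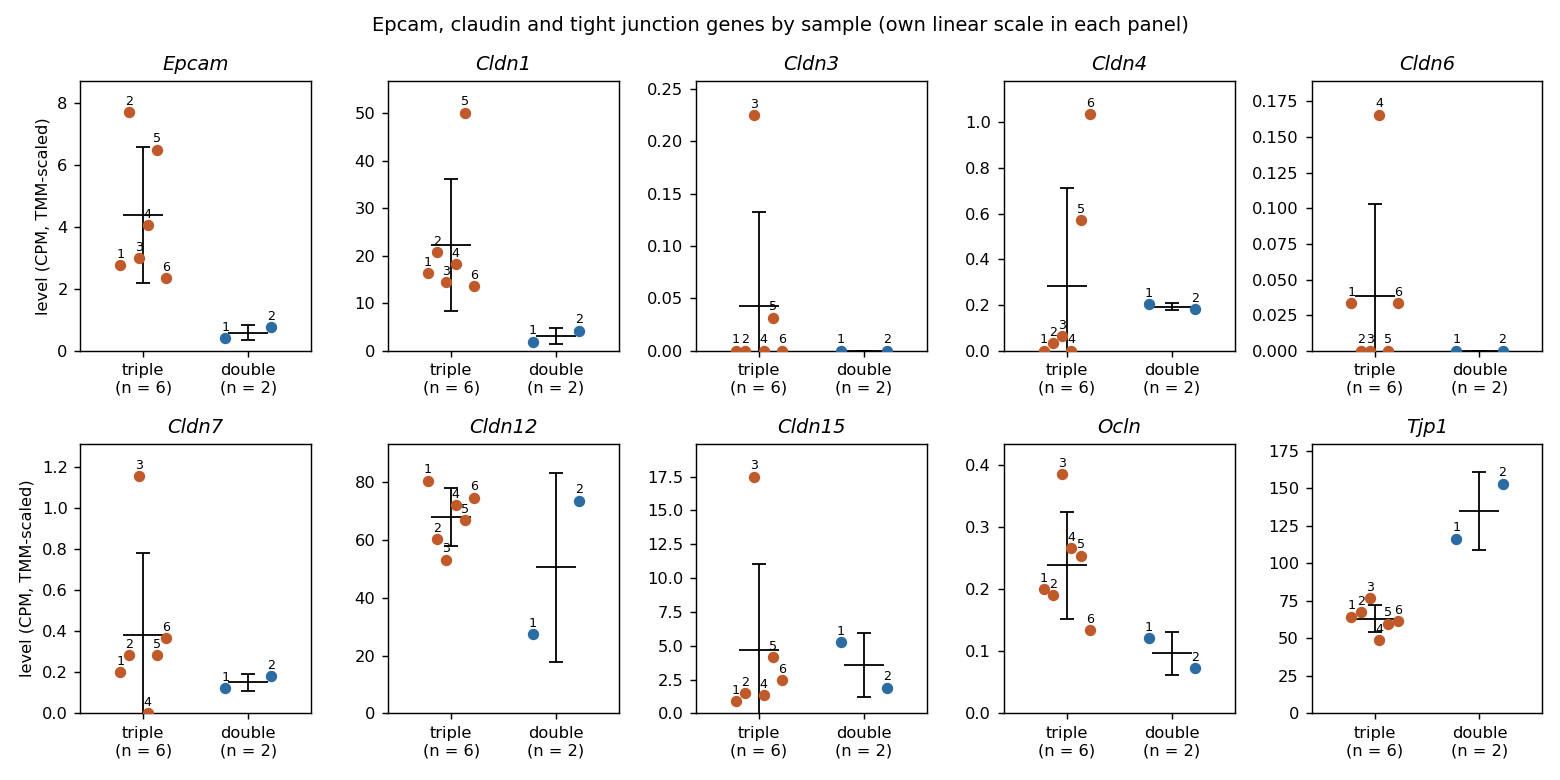
Level of each gene (CPM, TMM-scaled, linear axis from 0, own scale in each panel) in the 6 triple and 2 double knockout samples, with the sample number at each point; the horizontal mark is the mean and the bar 1 SD, cut at 0. All triple samples lie above both double samples for Epcam and Cldn1 and below them for Tjp1, while Cldn15 is highest in triple sample 3 at 17.5 CPM.

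Epcam (ENSMUSG00000045394, chromosome 17, 87635979 to 87651106) was low but counted in every sample. Gene positions are those of the count tables, on GRCm38. It stood at 2.33 CPM in the lowest triple sample, at a median of 3.51 and at 7.69 CPM in the highest, against 0.405 and 0.758 CPM in double samples 1 and 2. Every triple sample was above both double samples, and triple samples 2 and 5 were the highest. The mean was 4.38 ± 2.21 CPM (SD, n = 6) in the triple samples and 0.58 ± 0.25 CPM (SD, n = 2) in the double samples, 7.54-fold higher in the triple samples. The log2 fold change was 2.90 ± 0.66 (SE), with an adjusted p of 0.0349 by edgeR. An exact permutation test over all 28 divisions of the 8 samples into sets of 6 and 2 gave p = 0.0357 (two-sided), the smallest value that this design allows. The double samples rest on 10 and 21 reads, and the triple samples on 70 to 243.

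Cldn1 (ENSMUSG00000022512, chromosome 16, 26356642 to 26371841), a sealing claudin of epidermis and other epithelia, moved with Epcam. The triple samples ran from 13.6 CPM over a median of 17.3 to 50.1 CPM, against 1.90 and 4.22 CPM in double samples 1 and 2. The highest value was in triple sample 5; the other triple samples lay between 13.6 and 20.8 CPM, and no triple sample reached down to the double samples. Means were 22.2 ± 13.9 CPM (SD, n = 6) in the triple samples and 3.06 ± 1.64 CPM (SD, n = 2) in the double samples. The log2 fold change was 2.86 ± 0.66 (SE; edgeR adjusted p = 0.036; exact permutation p = 0.0357). Without triple sample 5 it was 2.44 ± 0.41, with adjusted p = 0.0243.

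The calls of Epcam and Cldn1 lay close to the threshold. Epcam had an adjusted p of 0.0509 to 0.0614 by edgeR without triple sample 1, 3, 4 or 5, and Cldn1 0.0574 to 0.064 without triple sample 1, 2 or 4. Without double sample 1 the log2 fold changes were 2.52 for Epcam (adjusted p = 0.226) and 2.38 for Cldn1 (adjusted p = 0.228), and without double sample 2 they were 3.44 (adjusted p = 0.0299) and 3.56 (adjusted p = 0.0259). In a fit with a lone double sample, its spread is taken to equal that of the triple samples. With limma-voom the adjusted p was 0.0522 for Epcam and 0.0609 for Cldn1. With DESeq2 it was 6.72e-05 for Epcam and 4.65e-05 for Cldn1.

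The labels carry a code whose meaning they do not give. Triple samples 4, 5 and 6 and double sample 1 share the code SN930, and each other sample has a code of its own. Among the SN930 samples the log2 fold change was 3.41 for Epcam (adjusted p = 0.0807), 3.86 for Cldn1 (adjusted p = 0.0869) and -1.02 for Tjp1 (adjusted p = 0.0578). Among the other samples it was 2.55 for Epcam (adjusted p = 0.371), 2.01 for Cldn1 (adjusted p = 0.2) and -1.15 for Tjp1 (adjusted p = 0.166). Directions were the same in both sets, each with 1 double sample.

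Tjp1 (ENSMUSG00000030516, chromosome 7, 65296165 to 65527781) fell. It ran from 48.8 CPM over a median of 63.0 to 76.7 CPM in the triple samples, against 116 and 153 CPM in double samples 1 and 2. The triple samples lay close together, and the highest of them was well below both double samples. Means were 63.2 ± 9.23 CPM (SD, n = 6) in the triple samples and 135 ± 25.9 CPM (SD, n = 2) in the double samples. The log2 fold change was -1.09 ± 0.19 (SE; edgeR adjusted p = 0.0139; exact permutation p = 0.0357). Leaving out any 1 of the 8 samples kept the call, with adjusted p of 0.0204 to 0.0361 and log2 fold changes of -1.28 to -0.87.

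**Figure D2:**
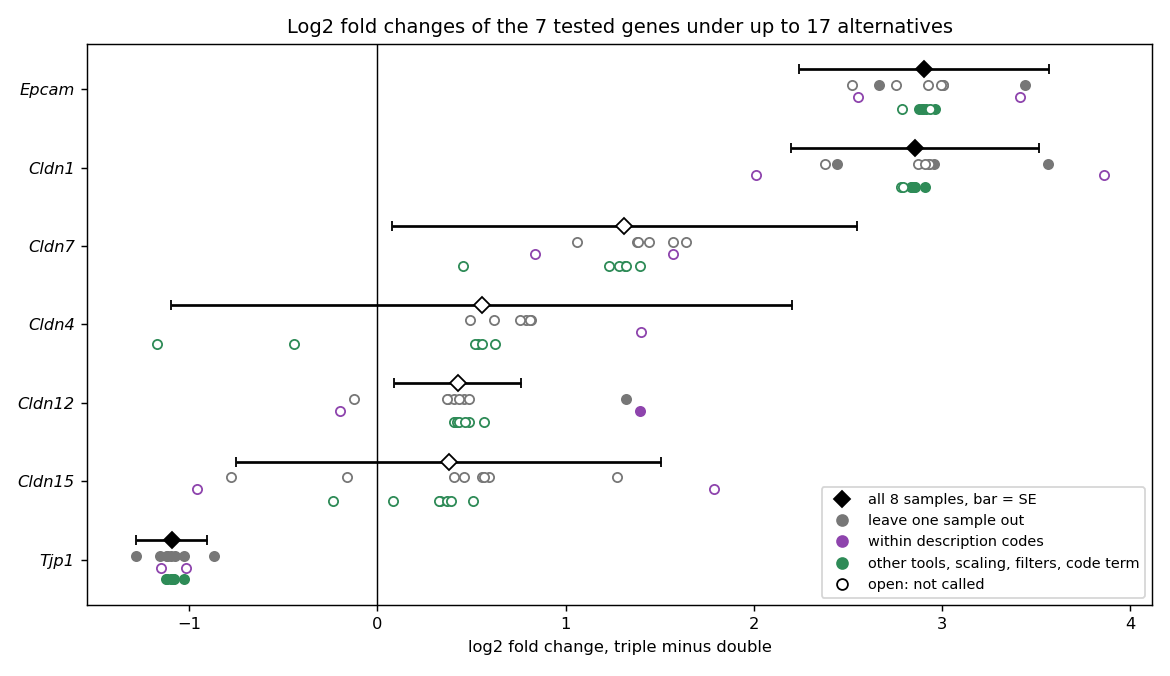
Log2 fold change (triple minus double) of the 7 tested genes: black diamonds with SE bars for all 8 samples, circles for fits without a sample, within sets of description codes, or with other tools, scaling, filters or a code term; open symbols were not called. Tjp1 stays between -1.28 and -0.87, and Epcam between 2.52 and 3.44, while Cldn12 and Cldn15 have values on both sides of 0.

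Cldn12 (ENSMUSG00000046798, chromosome 5, 5489537 to 5514958), a claudin that lacks the usual PDZ-binding end and is widely expressed, had the highest mean of all claudins per unit of length in the triple samples, although Cldn5 stood above it in triple samples 5 and 6. It ran from 53.2 over a median of 69.5 to 80.5 CPM there, against 27.5 and 73.5 CPM in double samples 1 and 2. Double sample 2 lay among the triple samples and double sample 1 lay below all of them. The log2 fold change was 0.43 ± 0.34 (SE; adjusted p = 0.432 by edgeR). Which double sample was kept decided the value: without double sample 1 it was -0.12 (adjusted p = 0.876), and without double sample 2 it was 1.32 (adjusted p = 0.0102), in a fit whose median over all genes was 0.15. Double sample 1 also had the highest share of mitochondrial counts, 4.04%, against 1.17% to 2.33% in the triple samples and 2.01% in double sample 2, and its TMM factor was 0.771, against 0.994 to 1.10 in the others. The part of these features in the level of Cldn12 was not tested.

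Cldn15 (ENSMUSG00000001739, chromosome 5, 136966616 to 136975858), a pore-forming claudin of the gut that mesothelial cells also express, was spread widely between samples. It stood at 0.929, 1.52, 17.5, 1.36, 4.18 and 2.47 CPM in triple samples 1 to 6, against 5.26 and 1.91 CPM in double samples 1 and 2. Triple sample 3 was far above the rest, while double sample 1 was above the remaining triple samples and double sample 2 lay among them. The log2 fold change was 0.38 ± 1.13 (SE; adjusted p = 0.853 by edgeR), and -0.78 (adjusted p = 0.477) without triple sample 3. Triple sample 3 is the sample in which Wt1 stood at 33.2 CPM and Upk3b at 173 CPM, against at most 1.76 and 0.365 CPM in any other triple sample. In double samples 1 and 2 Wt1 stood at 0 and 0.0361 CPM and Upk3b at 0.081 and 0.0361 CPM. Other junction genes were high in the same sample: Cxadr, an adhesion protein of epithelia and heart, at 31.7 CPM, against 1.99 to 7.69 CPM in the other triple samples and 6.36 and 8.66 CPM in the double samples. Cldn11 stood at 3.79 CPM in triple sample 3, but also at 3.04 CPM in triple sample 5. Wt1 is taken by the rule for named genes; Upk3b, Cxadr and Cldn11 were chosen after their values were seen. In bulk samples, fewer cells of a type and less RNA per cell cannot be told apart.

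**Figure D3:**
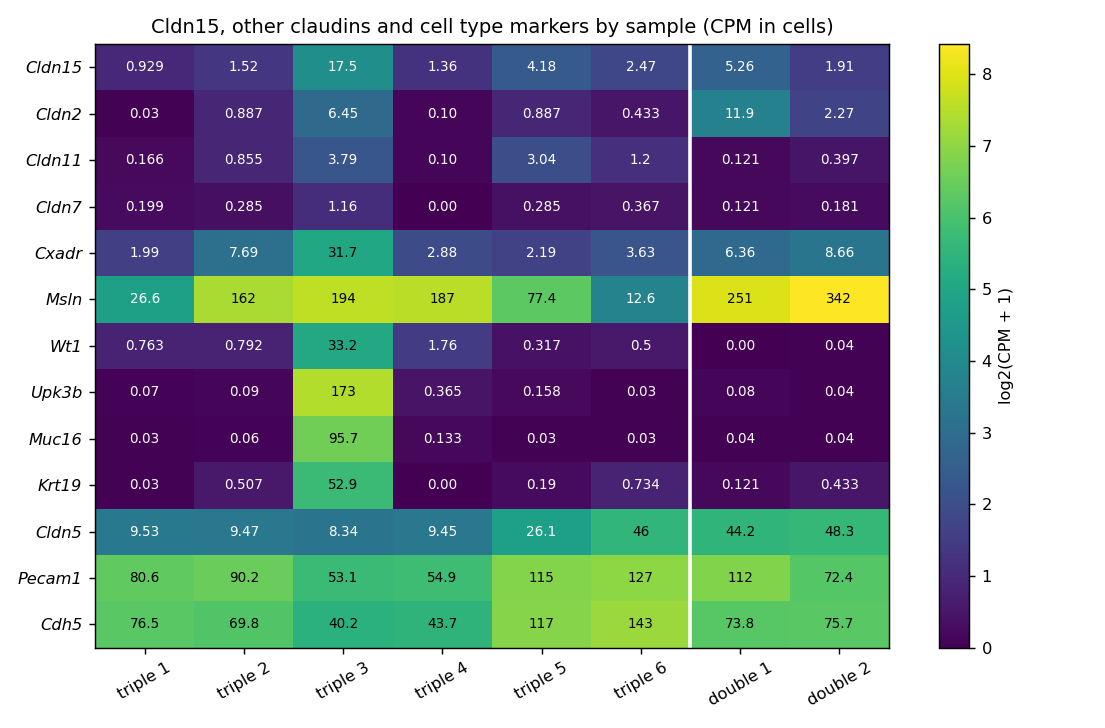
Heat map of log2(CPM + 1), with the CPM printed, for 6 junction genes, 5 mesothelial markers and 2 endothelial markers (rows) in the 6 triple and 2 double samples (columns). Cldn15, Cxadr, Wt1, Upk3b, Muc16 and Krt19 are highest in triple sample 3, and Cldn5 is highest in triple samples 5 and 6 and in both double samples.

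Cldn4 (ENSMUSG00000047501, chromosome 5, 134945119 to 134946934) and Cldn7 (ENSMUSG00000018569, chromosome 11, 69964779 to 69967885), sealing claudins that are typical of simple epithelia, passed the filter but were close to it. Cldn4 had 0, 1, 2, 0, 18 and 31 counts in triple samples 1 to 6, against 5 and 5 counts in the double samples. Only triple samples 5 and 6 stood above the double samples, at 0.57 and 1.03 CPM against 0.202 and 0.181 CPM. Cldn7, the claudin known to bind Epcam directly, had 6, 9, 36, 0, 9 and 11 counts in triple samples 1 to 6, against 3 and 5 counts in the double samples. Its log2 fold change was 1.31 ± 1.23 (SE; adjusted p = 0.51 by edgeR), and that of Cldn4 0.55 ± 1.65 (adjusted p = 0.852).

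Cldn3 (ENSMUSG00000070473, chromosome 5, 134986214 to 134987472), which lies 39.3 kb from Cldn4 on chromosome 5, had 7 counts in triple sample 3, 1 in triple sample 5 and 0 in the other triple samples, against 0 in both double samples. Cldn6 (ENSMUSG00000023906, chromosome 17, 23679365 to 23682446), a claudin of embryonic epithelia, had 5 counts in triple sample 4, 1 each in triple samples 1 and 6 and 0 in the other triple samples, again against 0 in both double samples. An antisense gene, Wbscr25, shares 40 bases of exon with Cldn3, 3.18% of its exon length, and without knowledge of the strand setting its reads cannot be told from those of Cldn3. Ocln (ENSMUSG00000021638, chromosome 13, 100496507 to 100552718) had 6, 6, 12, 8, 8 and 4 counts in triple samples 1 to 6, against 3 and 2 counts in the double samples. Its levels, 0.133 to 0.385 CPM in the triple samples against 0.121 and 0.0722 CPM in the double samples, did not overlap. This rests on few reads, as the nearest samples, triple sample 6 and double sample 1, had 4 and 3 counts. Of all tested genes, 24.1% showed no overlap. In a fit with no filter on low counts the log2 fold change of Ocln was 1.28 ± 0.69 (SE, adjusted p = 0.334 by edgeR). The exact permutation p was 0.0357, the smallest possible and not adjusted over the 10 genes.

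Per kilobase of merged exons, levels of different genes can be set side by side. The order of the means in the triple samples was Cldn12, Tjp1, Cldn1, Cldn15 and Epcam. Cldn15 averaged 2.19 ± 3.01 CPM per kb (SD, n = 6) in the triple samples and 1.69 ± 1.11 (SD, n = 2) in the double samples. Its place above Epcam rested on triple sample 3, at 8.24 CPM per kb, against 0.438 to 1.97 in the other triple samples. Cldn12 averaged 16.1 ± 2.36 CPM per kb (SD, n = 6) in the triple samples and 11.9 ± 7.70 (SD, n = 2) in the double samples. Tjp1 averaged 8.09 ± 1.18 CPM per kb in the triple samples and 17.3 ± 3.31 in the double samples, where it was the highest of the 10 genes. In the triple samples the ranges of Cldn12 and Tjp1 did not overlap, at 12.6 to 19.0 and 6.25 to 9.82 CPM per kb. Cldn1 averaged 4.59 ± 2.87 CPM per kb in the triple samples and 0.633 ± 0.339 in the double samples. Its range, 2.81 to 10.3 CPM per kb in the triple samples, overlapped that of Tjp1, and the ranges of Cldn1, Cldn15 and Epcam overlapped each other. Epcam averaged 2.00 ± 1.01 CPM per kb in the triple samples and 0.265 ± 0.114 in the double samples. Cldn7 and Cldn4 averaged 0.196 and 0.156 CPM per kb in the triple samples, below the lowest Epcam value of 1.06.

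Few claudins were detected. Of 33 claudin genes in the tables, 3 had at least 1 CPM in all 8 samples (Cldn1, Cldn5 and Cldn12), 10 had it in at least 1 sample, and 10 had no count in any. Cldn5, the main claudin of endothelium, was chosen after its values were seen. It stood at 8.34 to 46.0 CPM in the triple samples, against 44.2 and 48.3 CPM in the double samples (log2 fold change -1.35 ± 0.65; adjusted p = 0.211 by edgeR). Triple sample 6 lay between the double samples and triple sample 5 came next, while the other triple samples were at 8.34 to 9.53 CPM. The endothelial markers Pecam1 and Cdh5 were highest in triple samples 5 and 6 as well, at 115 and 127 CPM for Pecam1. The summed level of the 12 endothelial markers was 359 to 901 CPM in the triple samples and 574 and 421 CPM in double samples 1 and 2. Of the 12, 1 fell, Tek (adjusted p = 0.0499 by edgeR), against 5.41% of all genes tested. The log2 fold change of Tek was -1.83, and -0.43 without double sample 1. In each fit without 1 triple sample Tek missed the threshold, with an adjusted p of 0.0594 to 0.0984 by edgeR. The part of the endothelial markers in the level of Cldn5 was not tested.

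As shares of the summed claudin level per kilobase, Cldn1 took 4.89% to 20.8% in the triple samples, against 0.852% and 1.55% in double samples 1 and 2. Cldn5 took 16.4% to 56.6% in the triple samples, against 67.8% and 60.8% in the double samples. Neither share overlapped between the groups, while the levels of 24.1% of all tested genes did not overlap either. Shares within a sample depend on each other, and the level of Cldn5 itself did overlap. Cldn12 took 30.7% to 61.0% in the triple samples, against 14.1% and 31.0% in the double samples, where double sample 2 overlapped triple sample 6. Cldn15 reached 22.9% in triple sample 3 and stayed within 1.40% to 3.96% in the remaining triple samples, against 5.37% and 1.61% in the double samples.

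**Figure D4:**
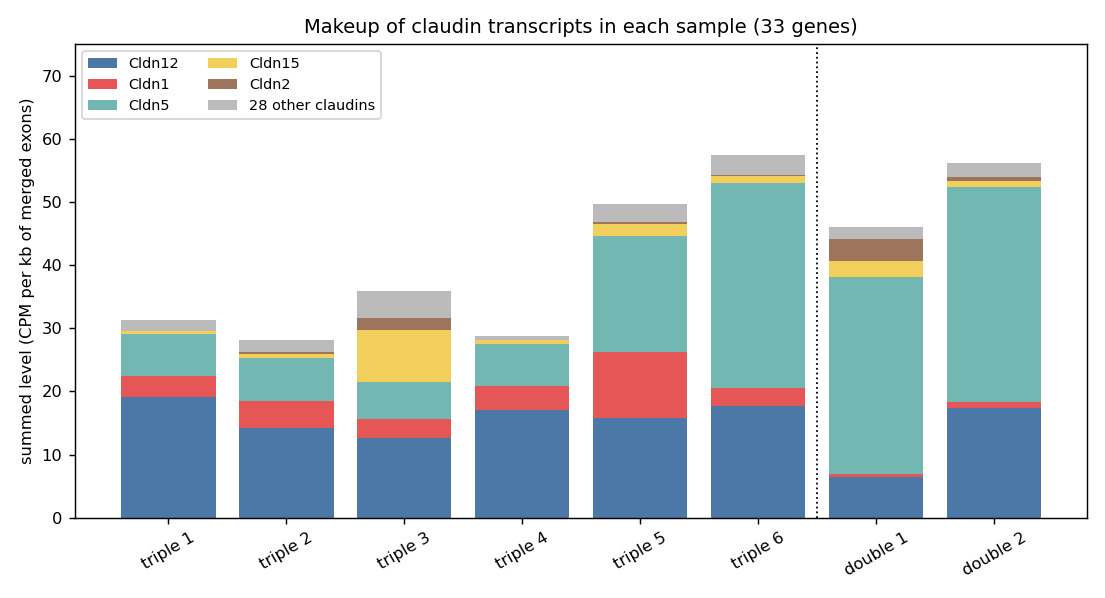
Stacked bars of the summed level of 33 claudin genes (CPM per kb of merged exons, axis from 0) in the 6 triple and 2 double samples, coloured by gene. Cldn1 is 4.89% to 20.8% of the bar in the triple samples and at most 1.55% in the double samples, and Cldn15 is 22.9% of the bar in triple sample 3.

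None of the 7 other claudins tested was called by edgeR, against 8.35% of all genes; 2 had an unadjusted p under 0.05, and DESeq2 and limma-voom called none either. Without triple sample 6, 1 of the 7, Cldn20, was called lower, at -2.50 (adjusted p = 0.0228 by edgeR). Their median log2 fold change was -0.65. Those of smallest p were Cldn20, at 0.095 to 0.534 CPM in the triple samples against 0.567 and 0.975 CPM in the double samples (log2 fold change -1.91 ± 0.63; adjusted p = 0.0938), and Cldn22, at 0.0332 to 0.564 CPM against 0 and 0.0361 CPM (adjusted p = 0.127). Among 10 other membrane proteins of the tight junction that were tested, 1 was called lower and 0 higher, and the median log2 fold change was 0.13. The gene that fell was Marveld2 (tricellulin), which seals the corners where several cells meet, at 0.398 to 0.896 CPM in the triple samples against 3.32 and 1.88 CPM in the double samples. Its log2 fold change was -1.87 ± 0.39 (SE; edgeR adjusted p = 0.0274), and -1.41 with adjusted p = 0.215 without double sample 1. Without triple sample 1, 3, 5 or 6 its adjusted p was 0.0521 to 0.055. F11r (JAM-A), chosen after its values were seen, stood at 15.5 to 36.2 CPM in the triple samples against 24.4 and 34.2 CPM in the double samples (adjusted p = 0.56).

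The scaffold and polarity proteins that surround Tjp1 had 0 genes higher and 5 lower of 21 tested, against 5.41% lower over all genes; their median log2 fold change was -0.28. Pard3, a polarity protein that is recruited to JAM proteins, stood at 40.8 to 62.2 CPM in the triple samples against 148 and 92.9 CPM in the double samples. Its log2 fold change was -1.30 ± 0.21 (SE; edgeR adjusted p = 0.0114). Magi1, a scaffold with several PDZ domains, stood at 12.7 to 18.2 CPM in the triple samples against 31.9 and 28.5 CPM in the double samples, a log2 fold change of -1.05 ± 0.20 (adjusted p = 0.021). Neither gene's groups overlapped. Without double sample 1 Pard3 was at -0.93 (adjusted p = 0.0692) and Magi1 at -0.97 (adjusted p = 0.102), and without triple sample 1 Magi1 was at -1.02 (adjusted p = 0.0508).

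Patj, a partner of the Crumbs polarity complex, was set by a single sample: it stood at 2.32 to 7.85 CPM in the triple samples, against 351 CPM in double sample 1 and 15.4 CPM in double sample 2. The log2 fold change was -5.24 ± 0.85 (SE; edgeR adjusted p = 0.0115) and -1.67 without double sample 1 (adjusted p = 0.284). Tjap1, a protein of tight junctions and of the Golgi, stood at 43.9 to 62.7 CPM in the triple samples against 202 and 70.1 CPM in double samples 1 and 2, with a log2 fold change of -1.36 ± 0.32 (adjusted p = 0.0374) and -0.41 without double sample 1 (adjusted p = 0.432). Amotl1 (angiomotin-like 1), the fifth called gene and chosen after its values were seen, stood at 135 to 240 CPM in the triple samples against 865 and 240 CPM in double samples 1 and 2. It gave a log2 fold change of -1.59 ± 0.41 (adjusted p = 0.0476) and -0.39 without double sample 1 (adjusted p = 0.664). Across the 3 lists of other tight junction genes, 0 rose and 6 fell, and without double sample 1 edgeR called none in either direction, with 1, 2 and 3 genes of the claudin, membrane and scaffold lists at an unadjusted p under 0.05. Tjap1 and Amotl1 also missed the threshold by edgeR in each fit without 1 triple sample, with adjusted p of 0.065 to 0.0706 and of 0.0669 to 0.0961.

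Markers of embryonic muscle were lower in the triple samples, as Tjp1 and these called scaffold genes were. All 14 were tested, and 13 fell and 0 rose, against 5.41% lower and 2.94% higher over all genes tested. Their summed levels were 5.54 to 168 CPM in the triple samples against 7671 and 2541 CPM in double samples 1 and 2. Tjp1 had the reverse order in the double samples, at 116 and 153 CPM. The called scaffold genes were higher in double sample 1 than in double sample 2, as the muscle sum was. Patj stood at 351 and 15.4 CPM, Amotl1 at 865 and 240 CPM and Tjap1 at 202 and 70.1 CPM. Pard3 stood at 148 and 92.9 CPM and Magi1 at 31.9 and 28.5 CPM. Among the triple samples the muscle sum was highest in triple sample 6, and Tjp1 in triple sample 3. Amotl1 was highest in triple sample 6 too, and the other called scaffold genes were highest in other triple samples. Cdh15 (M-cadherin) stood at 0.232 to 4.65 CPM in the triple samples against 333 and 343 CPM in the double samples. Without double sample 1, 6 of the 14 were called lower. The part of the muscle markers in the levels of Tjp1 and of the called scaffold genes was not tested. Some leukocyte and fibroblast markers were higher in the triple samples, as Epcam and Cldn1 were. Among the triple samples the leukocyte sum was highest in triple sample 4, Epcam in triple sample 2 and Cldn1 in triple sample 5. The fibroblast sum was highest in triple sample 6, in which Epcam and Cldn1 were the lowest of the triple samples. In the double samples the order was the same for all of these. Both sums, Epcam (0.405 and 0.758 CPM) and Cldn1 (1.90 and 4.22 CPM) were lower in double sample 1 than in double sample 2. The summed level of the 12 leukocyte markers was 2106 to 3020 CPM in the triple samples against 1000 and 2140 CPM in the double samples. Of the 12, 2 rose, Cd68 and Itgam, against 2.94% of all genes tested. Cd68 stood at 125 to 211 CPM in the triple samples against 53.1 and 87.1 CPM in the double samples, and Itgam at 24.1 to 42.2 CPM against 3.80 and 13.1 CPM. Both calls depended on the samples kept. By edgeR the adjusted p of Itgam was 0.0668 to 0.0758 without any 1 triple sample. That of Cd68 was 0.0506 to 0.057 without triple sample 1, 2, 4 or 6. Without double sample 1 the log2 fold changes were 0.94 for Cd68 and 1.25 for Itgam, and without double sample 2 they were 1.67 and 3.06. The 10 fibroblast markers summed to 20849 to 48017 CPM in the triple samples against 13446 and 17109 CPM in the double samples. Of the 10, 1 rose, Pdgfra, against 2.94% of all genes tested, at a log2 fold change of 1.83. The call was lost without double sample 1 (2.05) and without double sample 2 (1.65). It was also lost without triple sample 1, 4, 5 or 6, with an adjusted p of 0.0505 to 0.0652 by edgeR. The part of the leukocyte and fibroblast markers in the levels of Epcam and Cldn1 was not tested. Surfactant genes of the lung were at or near 0, with Sftpc at no more than 0.03 CPM in any sample.

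**Figure D5:**
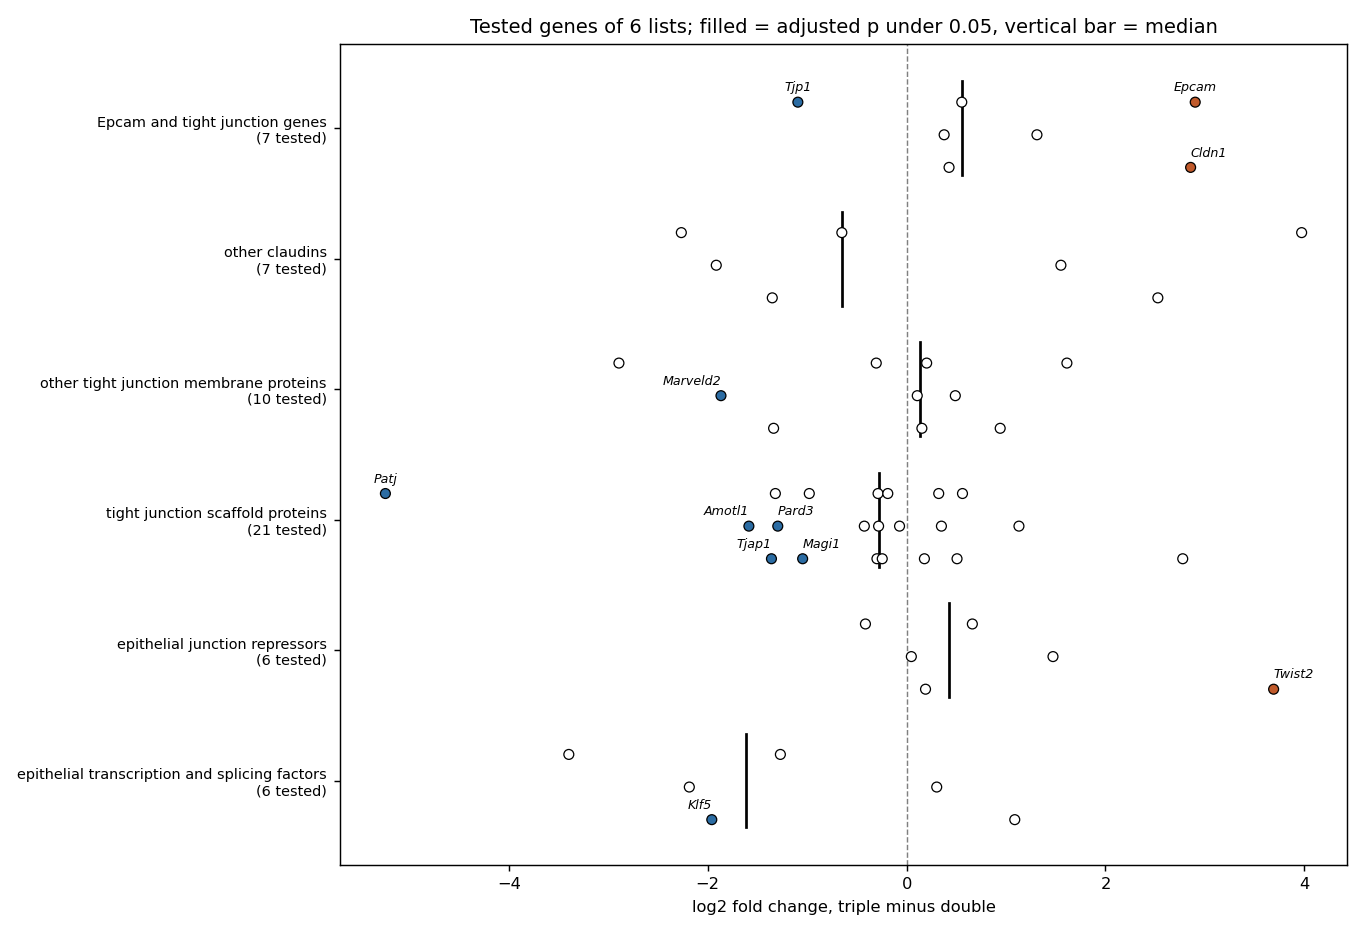
Log2 fold changes (triple minus double) of the tested genes of 6 lists, 1 row per list; filled points were called (adjusted p under 0.05), open points were not, and the vertical bar is the list's median. In the scaffold row the 5 called genes lie below 0, while Epcam and Cldn1 lie near 2.9 in the top row.

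Of 9 epithelial adhesion and keratin genes tested, 1 fell and 0 rose, against 5.41% lower and 2.94% higher over all genes tested. The gene that fell was Jup (plakoglobin), which links cadherins to the cytoskeleton. It stood at 35.0 to 98.9 CPM in the triple samples against 404 and 218 CPM in the double samples. Its log2 fold change was -2.20 ± 0.41 (SE, edgeR adjusted p = 0.0193). Without double sample 1 Jup was at -1.70 (adjusted p = 0.166). Cdh1 (E-cadherin), chosen after its values were seen, stood at 1.97 to 7.07 CPM in the triple samples against 4.21 and 6.72 CPM in the double samples (adjusted p = 0.556).

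Transcription factors that are known to act on these genes were read from the same fit. Of 16 epithelial transcription and splicing factors, 6 passed the filter; Klf5 fell, at 3.53 to 11.2 CPM in the triple samples against 32.4 and 22.8 CPM in the double samples (log2 fold change -1.96 ± 0.42; edgeR adjusted p = 0.0288), and the other 5 did not pass the test. Over all genes tested 5.41% were called lower. Klf5 had an adjusted p of 0.0509 to 0.0655 by edgeR without triple sample 1, 2 or 6. Its log2 fold change was -1.69 without double sample 1 and -2.18 without double sample 2. Grhl2, which is known to activate Epcam and claudin genes in epithelia, had at most 0.162 CPM in any sample and was chosen after its values were seen. All 6 repressors of epithelial junction genes passed the filter, with 1 higher and 0 lower, against 2.94% higher over all genes tested. Twist2 rose, at 6.50 to 37.1 CPM in the triple samples against 1.78 and 1.77 CPM in the double samples, a log2 fold change of 3.69 ± 0.68 (adjusted p = 0.0187). Without double sample 1 Twist2 was at 3.68 (adjusted p = 0.127). Zeb1, known to repress Epcam and Cdh1 and chosen after its values were seen, stood at 97.1 to 144 CPM in the triple samples against 129 and 165 CPM in the double samples (adjusted p = 0.198).

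Genes with a pattern like that of Epcam were sought among 13458 tested genes with a mean of at least 1 CPM, by Pearson's r of log2 CPM over the 8 samples. The 5 most alike were Pltp (r = 0.973), Sh3gl3 (0.966), Adam1a (0.955), Cldn1 (0.953) and Htra1 (0.952). Cldn1, the only one of the 10 genes among them, ranked below Adam1a. Pltp, a phospholipid transfer protein, stood at 137 to 240 CPM in the triple samples against 50.9 and 53.3 CPM in the double samples. For Tjp1 they were Slc29a1 (r = 0.984), Clcn5 (0.982), Epb41l5 (0.981), Cyp26a1 (0.974) and Fastkd1 (0.966). Epb41l5, a FERM protein of cell junctions, stood at 4.28 to 5.54 CPM in the triple samples against 10.4 and 12.2 CPM in the double samples. These values describe the 8 samples, and a difference between the groups alone gives a high r. Within the 6 triple samples Epcam and Cldn1 had r = 0.729 (exact permutation p = 0.0583, 0.299 after Benjamini-Hochberg adjustment over 10 pairs) and Spearman's rho = 0.886 (exact permutation p = 0.0333, adjusted 0.333). Without the 2 triple samples farthest from the median of Epcam, r was 0.851. None of the 10 pairs among Epcam, Cldn1, Cldn12, Cldn15 and Tjp1 passed the adjustment.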

How the data were processed

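RNA-seq of 6 triple and 2 double knockout mouse mesothelioma samples was used. The authors deposited raw read counts per gene, a table for each sample, with Ensembl identifiers and gene positions; positions of 49956 of the 52636 genes equal those of GENCODE M21 (GRCm38), and a name table gave symbols for 52403. HTSeq, DESeq2, mm10 and GRCm38 are named per the submitters' processing notes; the aligner and strand setting were not given in the sources used here. Counts were fitted in R 4.3.3 with edgeR 4.0.16 (filterByExpr, TMM, quasi-likelihood test, no covariate), triple minus double, with Benjamini-Hochberg adjustment over all genes tested and a threshold of 0.05. Standard errors come from the test statistic. DESeq2 1.42.0, limma 3.58.1 (voom), other scaling and filters, a code term, fits within code sets and fits without each sample were tried. The scripts were tested on simulated data. Members, lists and tests were chosen with earlier results of these data known. Apart from the 10 genes, the text names up to 4 called genes of smallest p per list, or up to 2 tested ones where none was called, the 3 targeted genes, and the 5 genes most like Epcam and Tjp1; any other gene, the cell type markers named singly included, was chosen after its values were seen. Results of 1 further list are not reported here. Exon lengths are merged GENCODE M21 exons.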

Additional observations from a re-analysis of the deposited data

Results flagged for a closer look

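Among the 6 triple samples some genes had 1 sample far from the rest, judged by the gap to the nearest sample over the whole range (Dixon, 95%). Chance flags about 1 in 20 groups of normally distributed values, and 36 genes were looked at. The ratio was taken on CPM without a log, and genes with counts near 0 need not keep to that rate. Cldn1 stood at 50.1 CPM in triple sample 5, against 13.6 to 20.8 CPM in the other triple samples. Triple sample 3 held Cldn15 at 17.5 CPM (0.929 to 4.18 CPM in the others), Cldn7 at 1.16 CPM (0 to 0.367), Cldn3 at 0.225 CPM (0 to 0.0317) and Wt1 at 33.2 CPM (0.317 to 1.76). Cldn6 stood at 0.166 CPM in triple sample 4 (0 to 0.0333 in the others), which rests on 5 counts. Cldn20 stood at 0.534 CPM in triple sample 6 (0.095 to 0.166). Foxj1, a marker of ciliated cells, stood at 1.11 CPM in triple sample 5 (0.0667 to 0.353). Nf2 was the lowest in triple sample 4, at 62.7 CPM, against 87.1 to 100.3 CPM in the others.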

How the results depend on the processing

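Tjp1 kept its direction and its call in 15 of 17 alternatives and lost the call within the code sets, at -1.15 among the other codes and -1.02 within SN930. Epcam and Cldn1 kept their direction in all 17 and their calls in 8 and 9. They missed the threshold with limma-voom (2.79 for both), with the code as a term (2.93 and 2.78), within SN930 (3.41 and 3.86) and within the other codes (2.55 and 2.01). Without 1 sample at a time, Epcam ranged over 2.52 to 3.44, Cldn1 over 2.38 to 3.56, Tjp1 over -1.28 to -0.87, Cldn4 over 0.49 to 0.81, Cldn7 over 1.06 to 1.64, Cldn12 over -0.12 to 1.32 and Cldn15 over -0.78 to 1.27. Directions reversed for Cldn4 with limma-voom (-1.17) and the code term (-0.44), for Cldn12 within the other codes (-0.20) and without double sample 1 (-0.12), and for Cldn15 with limma-voom (-0.24), within SN930 (-0.96), without triple sample 3 (-0.78) and without double sample 2 (-0.16). Cldn12 was called within SN930 (1.39). Members called higher numbered 0 with limma-voom, with the code term and within the other codes, 1 within SN930 and 0 to 3 without 1 sample. Members called lower numbered 0 within either code set and 1 to 1 without 1 sample. Over all genes DESeq2 called 1459 higher and 1910 lower, SN930 alone 887 higher and 1269 lower, the other codes 0 higher and 1 lower, the code term 369 higher and 593 lower, and fits without 1 sample 103 to 2592 higher and 212 to 2987 lower. Of the 3 lists of other tight junction genes, 3 were lower with limma-voom, 0 within the other codes, and 0 to 8 lower and 0 to 1 higher without 1 sample. The cause was not tested. No paired analysis was possible because the replicate numbers were given in accession order. Cldn3, Cldn6 and Ocln had too few counts to be tested at this depth.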
